A study of Homo sapiens with 6 samples.

Results

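The snoRNA host genes are genes whose introns carry small nucleolar RNAs (snoRNAs). They were taken here as every row of the deposited gene table named SNHG followed by a number, together with GAS5, ZFAS1, EPB41L4A-AS1 and DANCR. That gave 29 of the 58825 genes. In 143B cells 27 of them could be tested, and 1 (3.7%) changed after the SIGLEC15 siRNA, where 4.65% of all tested genes did. That gene, SNHG1, fell by 1.41-fold (n = 3 libraries per group), a call that was lost in 6 of 13 alternative analyses. None passed the test toward higher expression. The abundant hosts SNHG29, GAS5 and ZFAS1 had lower means after the SIGLEC15 siRNA without passing, and the mean of DANCR was higher without passing.

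143B is a human osteosarcoma cell line. Cells were transfected with 80 nmol/L of a negative control siRNA (3 libraries) or of an siRNA against SIGLEC15, which encodes a sialic acid-binding receptor (3 libraries), and poly(A) RNA was taken 36 h later. Both groups had the HiPerFect transfection reagent and the same serum-containing medium, and the labels name no untransfected group. Nothing in the labels states that libraries of the same siRNA are from different cultures. A p-value here therefore reflects library-to-library spread, and that spread may be technical.

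Libraries held 57966691 to 67655254 counts. The targeted gene SIGLEC15 had 12, 10 and 22 counts in control replicates 1 to 3 and 12, 8 and 6 counts in SIGLEC15 siRNA replicates 1 to 3, so the groups overlapped (edgeR log2 fold change -0.82, SE 0.598, Benjamini-Hochberg adjusted p = 0.529). A lower level of the target was therefore not shown, and below each group is named by its label. The summed level of 7 mesenchymal and osteoblastic markers was 3384 to 3553 CPM (counts scaled to library size) in the control and 3293 to 3527 CPM in the SIGLEC15 siRNA libraries, mostly VIM and SPARC. Within that list SPARC and COL1A1, both matrix proteins, rose (log2 fold change 0.80 and 0.69, edgeR adjusted p = 0.00137 and 0.0134); their part in the results below was not tested. The osteoblast markers ALPL and COL1A2 were near 0. RUNX2, a transcription factor of the osteoblast lineage, had 3.42, 3.59 and 2.65 CPM in the control and 20.1, 3.6 and 15 CPM in the SIGLEC15 siRNA libraries, so that replicates 1 and 3 of the latter stood apart (log2 fold change 2.00, edgeR adjusted p = 0.113). The leukocyte markers PTPRC and CD3E were at 0 in all 6 libraries, and CD68 had 27.9 to 56.4 CPM.

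snoRNAs guide the chemical modification of ribosomal and spliceosomal RNA and are released from introns as the host transcript is spliced. In non-coding hosts the spliced exons are what remains as the named long non-coding RNA, and poly(A) sequencing reads mainly these exons. Many such hosts belong to the 5′ TOP class: their transcripts begin with a C followed by a run of pyrimidines, as do those of ribosomal proteins, and their spliced RNA is often engaged by ribosomes and destroyed by nonsense-mediated decay. GAS5 got its name from its accumulation in growth-arrested cells. DANCR is known for holding back osteoblast differentiation.

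Start sequences are printed for 8 of the 9 hosts of at least 10 CPM with an annotated transcript that begins with CTTT. They are shown because this 5′ TOP-like opening is shared by many of the hosts. That of SNHG6 is not printed, and none of the 9 passed the test. The starts below are the first 30 bases of 1 annotated transcript per gene in GENCODE 29 (GRCh38), the one with the lowest transcript number among those beginning with CTTT, with the opening run of pyrimidines in capitals.
SNHG29: CTTTTCattcccgttgttatggagggccac
GAS5: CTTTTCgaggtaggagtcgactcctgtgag
ZFAS1: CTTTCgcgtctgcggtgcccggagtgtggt
SNHG16: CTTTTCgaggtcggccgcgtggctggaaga
SNHG4: CTTTCCCCTCCggcctctgccggtgctgct
SNHG8: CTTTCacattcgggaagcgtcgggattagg
SNHG19: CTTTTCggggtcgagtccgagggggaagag
SNHG5: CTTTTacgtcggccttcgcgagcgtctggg

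GAS5 and SNHG16 share their first 11 bases, and SNHG19 shares 7 with each of them. At least 1 transcript that starts with CTTT is annotated for 10 of the 29 host genes (34.5%), the 8 above, SNHG25 and SNHG6. The same held for 29 of 82 ribosomal protein genes (35.4%) and for 62 of 2995 tested long non-coding genes (2.07%). Host genes have many annotated transcripts, 282 in all, of which 27 (9.57%) begin with CTTT, against 0.713% of the transcripts of all tested genes.

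The windows below run from 15 bases before to 15 bases after the RefSeq transcript start (GRCh38.p14) and show SNHG1, SNHG7 and SNHG12, which had lower values after the SIGLEC15 siRNA without overlap, beside DANCR and EPB41L4A-AS1; CTTT is in capitals where present.
SNHG1: ccggggagattcgttctcatttttctactg
SNHG7: gcttcccttctcgtcctctgcgtgcgccgg
SNHG12: tcgcggcttcagcgccCTTTctccccgccg
DANCR: tcggctgcgcgccccgcccttgcccagagt
EPB41L4A-AS1: tggactcatgaattctgtcgggtcccaaaa

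The SNHG1 window lies at chr11:62855871-62855900 on the minus strand, that of SNHG7 at chr9:136728170-136728199 on the minus strand and that of SNHG12 at chr1:28581859-28581888 on the minus strand. The DANCR and EPB41L4A-AS1 windows lie on the plus strand at chr4:52712379-52712408 and chr5:112160511-112160540. CTTT was searched on both strands; on the transcribed strand it was in 9 of 25 host gene windows (36%) and in 12.5% of the 35116 RefSeq windows of the same length, and on the other strand in 4% and 9.8%. A match describes letters in the window and not a used start site.

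Of the 29 genes 27 passed the filter on low counts and were tested. SNHG27 had no counts in any library, and SNHG28 had 23 counts in control replicate 3 and 0 in the other libraries; 3 counts, the limit a count of 0 allows for counting error, are 0.0447 to 0.0509 CPM in these libraries. The 27 spanned levels from SNHG22, with 0.131 to 0.221 CPM, to SNHG29, with 808 to 1030 CPM, and 20 of them had a mean of at least 10 CPM. Per length the order differed: SNHG29 had a mean of 202 FPKM (fragments scaled to gene length and library size), followed by ZFAS1 (84.3 FPKM), SNHG6 (80.8 FPKM), SNHG19 (60.8 FPKM) and GAS5 (41.3 FPKM). Gene lengths worked out from FPKM and summed counts of control replicate 1 had a median of 1.19 times the summed exons of GENCODE 29. This ratio ran from 1.19 to 2.23 among the tested hosts. It was 1.19 also for SNHG19, which has 1 annotated transcript, and 1.58 for GAS5. The listed start or end of GAS5 and of SNHG14 (2.23) differs from that in GENCODE 29, as does that of SNHG4 (1.19). The ratio mixes gene length with the library total behind the FPKM, which were not told apart. Retained introns count as exons in these sums. The FPKM of a short spliced RNA such as that of GAS5 may therefore be spread over a longer length. Together the 29 genes took 0.217% to 0.254% of the counts in the control and 0.199% to 0.219% in the SIGLEC15 siRNA libraries.

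**Figure D1:**
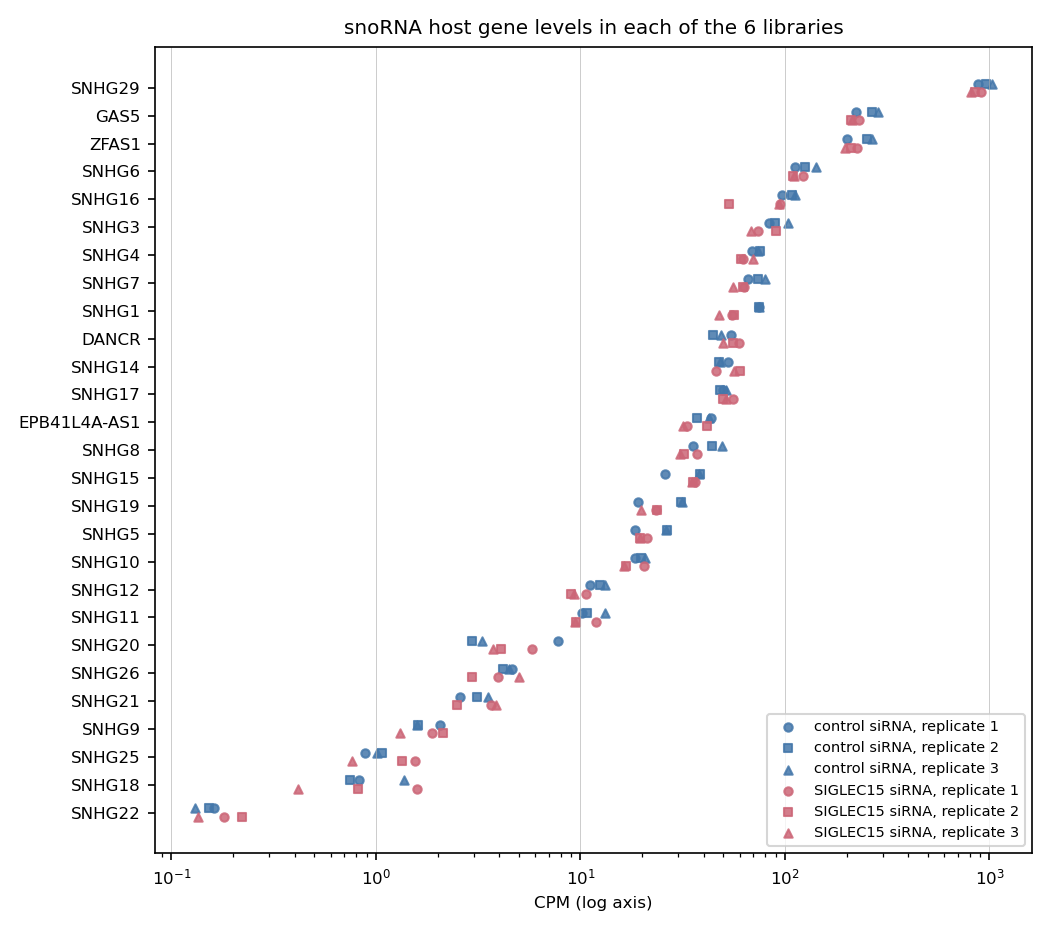
CPM (log axis) of the 27 tested snoRNA host genes in each library, ordered by mean level; blue points are control siRNA and red points SIGLEC15 siRNA libraries, with the point shape giving the replicate. SNHG1 is the gene whose 3 blue points fall together and apart from the red ones, and SNHG16 has 1 red point, SIGLEC15 siRNA replicate 2, far to the left of the rest.

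Across the transcriptome 4.65% of 18910 tested genes changed at an edgeR adjusted p under 0.05, 2.43% lower and 2.22% higher. Among the 27 tested hosts 1 (3.7%) changed, which is close to that background. Log2 fold changes lay below 0 for 19 of the 27 and above 0 for 8, with a median of -0.16, where 50.9% of all tested genes lay below 0 and the median was -0.01. The groups did not overlap in 4 of the 27, all toward lower values, against 26.6% of all tested genes in either direction and 13.7% toward lower values. At an unadjusted edgeR p under 0.05 there were 5 hosts (18.5%), SNHG1, SNHG7, SNHG8, SNHG12 and GAS5, all lower. Of all tested genes 19.1% had such a p in either direction, close to the share of the hosts, and 9.74% had it toward lower values. SNHG8, and the other hosts outside the naming rule given with the methods, were named after their values were seen.

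SNHG1 carries a series of box C/D snoRNAs in its introns (ENSG00000255717, chromosome 11, 62851988 to 62855914, minus strand). It had 74.6, 74.4 and 74.8 CPM in control replicates 1 to 3 and 55, 56.1 and 47.6 CPM in SIGLEC15 siRNA replicates 1 to 3. All 3 SIGLEC15 siRNA values lay below all control values. The means were 74.6 CPM ± 0.226 and 52.9 CPM ± 4.62 (SD over 3 libraries each), and SNHG1 fell with a log2 fold change of -0.50 (SE 0.0819, 95% interval -0.69 to -0.30, edgeR adjusted p = 0.0234). The control SD was smaller than the 1.11 CPM that counting error alone gives at this depth. The call was lost with the replicate number as a block (edgeR adjusted p = 0.132), without any 1 control library (0.0792 to 0.0904) and without SIGLEC15 siRNA replicate 1 (0.0608) or 2 (0.0666), while the log2 fold change stayed between -0.54 and -0.42.

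The start of SNHG1 lies 188 bp from that of SLC3A2, which runs the other way and encodes the heavy chain of amino acid transporters. Its level was 223 CPM ± 11.1 with control and 233 CPM ± 15.5 with SIGLEC15 siRNA (SD, n = 3 each; log2 fold change 0.07, edgeR adjusted p = 0.703). Of the snoRNA rows inside SNHG1, SNORD30 had 15, 21 and 17 counts in the control and 14, 13 and 25 in the SIGLEC15 siRNA libraries. SNORD22 had 124, 1 and 193 counts against 138, 2 and 139. Neither passed. SNORD26 had 1, 21 and 39 counts against 1, 20 and 51, and SNORD27 had 32, 1 and 1 against 26, 1 and 1. In SNORD22, SNORD26 and SNORD27 the libraries with 1 or 2 counts thus had the same replicate numbers in both groups. A 125 bp row listed as RF00099 also lies inside SNHG1 on its strand. It had 61, 96 and 56 counts against 46, 49 and 64 (log2 fold change -0.50, edgeR adjusted p = 0.448).

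SNHG7, SNHG12 and SNHG16 also had groups that did not overlap, and none passed. SNHG7 (chromosome 9, 136721366 to 136728184, minus strand), host of SNORA17A and SNORA17B, had 65.7, 73.6 and 80.2 CPM in the control and 62.9, 62 and 55.8 CPM in the SIGLEC15 siRNA libraries (log2 fold change -0.28, SE 0.0958, edgeR adjusted p = 0.173). The gap between the groups was small, with control replicate 1 next to SIGLEC15 siRNA replicate 1. DIPK1B, which overlaps SNHG7 on the opposite strand, also had groups that did not overlap, with 16.8 CPM ± 1.67 and 13 CPM ± 0.323 (SD, n = 3 each; log2 fold change -0.36, edgeR adjusted p = 0.134). Whether the counting used strand is not given in the sources used here, so reads of the pair could have been mixed.

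SNHG12 (chromosome 1, 28578538 to 28582986, minus strand) had 11.1, 12.5 and 13.2 CPM in the control and 10.7, 8.95 and 9.35 CPM in the SIGLEC15 siRNA libraries (log2 fold change -0.34, SE 0.124, edgeR adjusted p = 0.195). SNORD99, inside SNHG12, had 22, 24 and 17 counts against 8, 9 and 7, again without overlap and without passing (log2 fold change -1.45, SE 0.49, edgeR adjusted p = 0.17).

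SNHG16 (chromosome 17, 76557766 to 76565348, plus strand), host of the SNORD1 family, had 96.7, 109 and 112 CPM in the control and 94.7, 53.5 and 93.8 CPM in the SIGLEC15 siRNA libraries. SIGLEC15 siRNA replicate 2 stood apart, and the other 2 lay just under the lowest control. The log2 fold change was -0.39 (SE 0.215, edgeR adjusted p = 0.391) and -0.17 without SIGLEC15 siRNA replicate 2 (edgeR adjusted p = 0.456).

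**Figure D2:**
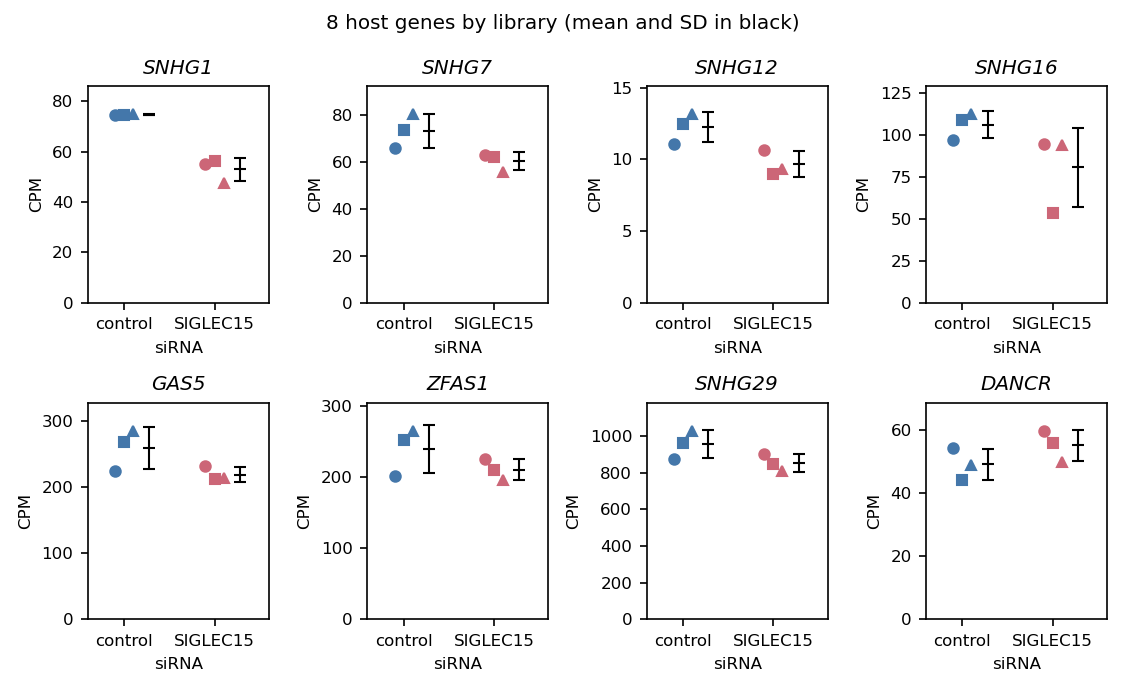
CPM of 8 host genes by siRNA group, 1 point per library with the shape giving the replicate, and the mean with SD in black beside each group; every axis starts at 0. SNHG1 shows 3 nearly equal control values between 74.4 and 74.8 CPM above all SIGLEC15 siRNA values, while GAS5, ZFAS1, SNHG29 and DANCR overlap between the groups.

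The most abundant hosts overlapped between the groups. SNHG29 (ENSG00000175061, chromosome 17, 16438822 to 16478678, plus strand), host of SNORD49A, SNORD49B and SNORD65, had 877, 965 and 1030 CPM in the control and 905, 851 and 808 CPM in the SIGLEC15 siRNA libraries (log2 fold change -0.16, SE 0.0787, 95% interval -0.35 to 0.02, edgeR adjusted p = 0.326). Control replicate 1 was the lowest of the controls and lay within the SIGLEC15 siRNA range. SNORD65 had 109, 141 and 166 counts in the control and 79, 87 and 78 in the SIGLEC15 siRNA libraries, so its groups did not overlap (log2 fold change -0.84, SE 0.234, edgeR adjusted p = 0.107).

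GAS5 (ENSG00000234741, chromosome 1, 173858559 to 173868882, minus strand) had 223, 267 and 285 CPM in the control and 231, 211 and 213 CPM in the SIGLEC15 siRNA libraries. Control replicate 1 fell inside the SIGLEC15 siRNA range and the other 2 controls above it. The means were 258 CPM ± 31.5 and 218 CPM ± 11.1 (SD, n = 3 each), with a log2 fold change of -0.24 (SE 0.0993, 95% interval -0.48 to -0.01 before adjustment, edgeR adjusted p = 0.25). Without control replicate 1 the log2 fold change was -0.34, and it still did not pass (edgeR adjusted p = 0.104). Without control replicate 3 it was -0.17 (edgeR adjusted p = 0.465).

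ZFAS1 (ENSG00000177410, chromosome 20, 49278178 to 49295738, plus strand), host of the SNORD12 family, had 202, 252 and 265 CPM against 226, 210 and 196 CPM (log2 fold change -0.19, SE 0.115, 95% interval -0.46 to 0.09, edgeR adjusted p = 0.446). As in GAS5, control replicate 1 lay within the SIGLEC15 siRNA range. ZNFX1, which overlaps ZFAS1 on the opposite strand and starts 248 bp away, had 99.2 CPM ± 12.2 and 103 CPM ± 7.35 (SD, n = 3 each; log2 fold change 0.05, edgeR adjusted p = 0.856). SNHG6, host of SNORD87, had 112, 125 and 141 CPM against 122, 109 and 111 CPM (log2 fold change -0.14, edgeR adjusted p = 0.498).

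SNHG3 and SNHG4 each lie within the span of a protein-coding gene on the same strand, so the split of reads between the pair is uncertain. SNHG3, host of SNORA73A and SNORA73B, had 83.2, 89 and 103 CPM in the control and 73.8, 90.2 and 68.5 CPM in the SIGLEC15 siRNA libraries (log2 fold change -0.24, edgeR adjusted p = 0.374). RCC1, a chromatin-bound exchange factor for the GTPase RAN whose span holds SNHG3, varied more between replicates, with 13681, 5181 and 6061 counts in the control and 9707, 8102 and 12778 in the SIGLEC15 siRNA libraries. SNHG4 had 68.7, 75.7 and 74.1 CPM against 62.6, 61.3 and 69.8 CPM (log2 fold change -0.17, edgeR adjusted p = 0.306). The MATR3 row that spans SNHG4 had 2143 counts in control replicate 2 and 17250 to 28160 in the other 5 libraries, and SNHG4 itself showed no such dip. Host and partner summed gave a log2 ratio of mean CPM of 0.05 for SNHG3 with RCC1 and 0.60 for SNHG4 with MATR3. Single libraries set both values: the first was 0.32 without control replicate 1 and -0.10 without control replicate 2, and the second was 0.23 without control replicate 2.

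DANCR (ENSG00000226950, chromosome 4, 52712404 to 52720351, plus strand), host of SNORA26, had 54.2, 44.3 and 48.9 CPM in the control and 59.8, 55.8 and 49.8 CPM in the SIGLEC15 siRNA libraries. Its mean was higher after the SIGLEC15 siRNA, but the groups overlapped (log2 fold change 0.17, SE 0.107, 95% interval -0.09 to 0.42, edgeR adjusted p = 0.469). SNORA26 had 42, 82 and 67 counts against 38, 47 and 41, with the lowest control among the SIGLEC15 siRNA values (log2 fold change -0.67, edgeR adjusted p = 0.356). EPB41L4A-AS1 (ENSG00000224032, chromosome 5, 112160526 to 112164276, plus strand), host of SNORA13, had 43.2, 37.1 and 42.4 CPM against 33.4, 41.7 and 31.7 CPM (log2 fold change -0.20, edgeR adjusted p = 0.462).

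The other 15 tested hosts had log2 fold changes between -0.37 (SNHG8) and 0.30 (SNHG25). SNHG14, the long transcript of the Prader-Willi region that carries the SNORD115 and SNORD116 clusters, had 47.7 to 52.6 CPM in the control and 45.8 to 60.4 CPM in the SIGLEC15 siRNA libraries. SNHG17, host of members of the SNORA71 family, had the narrowest interval of the 27 tested (log2 fold change 0.07, 95% interval -0.11 to 0.25). For the 7 hosts under 10 CPM intervals were wide, up to -1.02 to 1.55 for SNHG22.

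**Figure D3:**
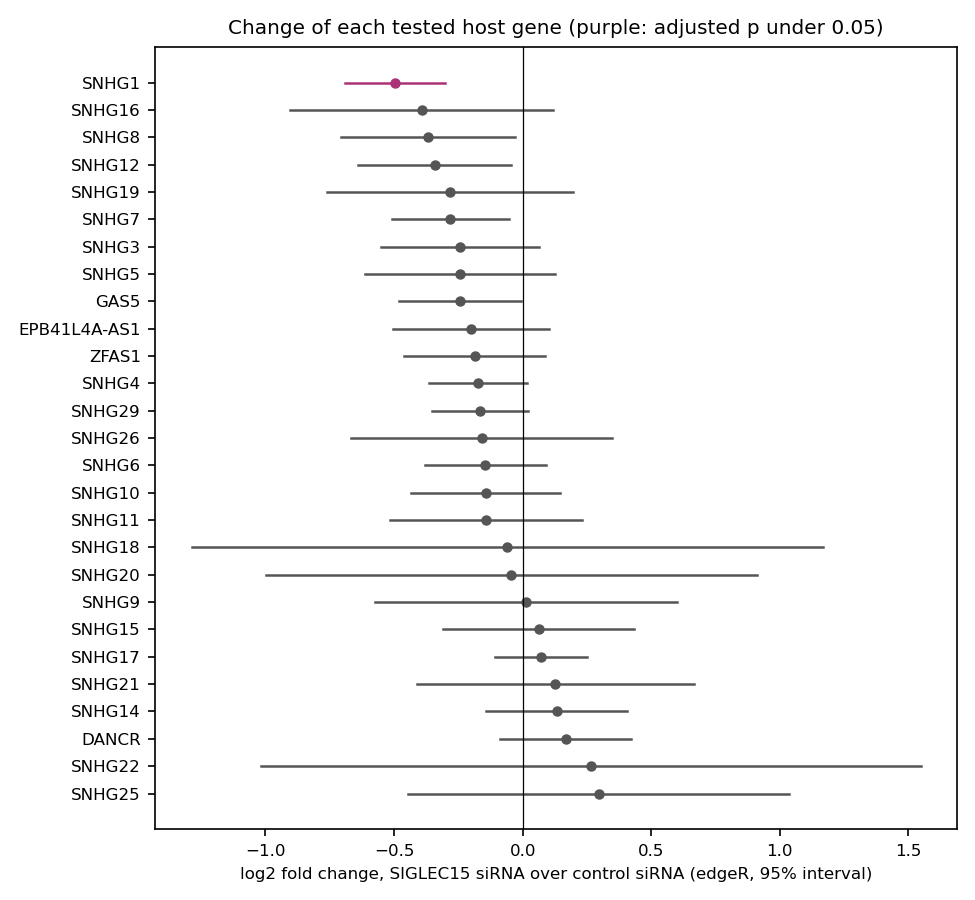
Log2 fold change of SIGLEC15 siRNA over control siRNA with its 95% edgeR interval, before adjustment for multiple testing, for the 27 tested host genes, ordered by size; purple marks an adjusted p under 0.05. SNHG1, at -0.50, is the 1 purple gene, 19 genes lie left of 0, and the weakly expressed SNHG18, SNHG20, SNHG22 and SNHG25 have the widest intervals.

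Hosts with an annotated CTTT start also varied alike among the control libraries. In all 10 of them control replicate 1 was the lowest control, against 7 of the other 17 hosts, 67 of 82 ribosomal protein genes and 34.2% of all tested genes. Among hosts of at least 10 CPM, control replicate 1 was the lowest control in 9 of 9 with a CTTT start and in 6 of 11 without. For the 10 hosts with a CTTT start the median log2 deviation from the control mean was -0.18, 0.06 and 0.15 in control replicates 1 to 3. In SIGLEC15 siRNA replicates 1 to 3 it was -0.15, -0.23 and -0.27. For ribosomal protein genes it was -0.13, 0.00 and 0.13 in the controls and 0.09, -0.05 and -0.07 in the SIGLEC15 siRNA libraries. In both sets of genes control replicate 1 lay below SIGLEC15 siRNA replicate 1. The median log2 fold change was -0.21 for the 10 hosts with a CTTT start and -0.06 for the other 17. Abundance differed between these sets, since 6 of the 7 hosts under 10 CPM are among the 17; among hosts of at least 10 CPM the medians were -0.24 (9 hosts) and -0.14 (11 hosts). Of the 10 hosts with a CTTT start 1 had groups that did not overlap and 0 passed with edgeR, with 2 at an unadjusted p under 0.05, while DESeq2 called 1 and limma-trend 0. Of the other 17, 3 had groups that did not overlap and 1 passed. Over all tested genes 26.6% had groups that did not overlap, 4.65% passed with edgeR and 19.1% had an unadjusted edgeR p under 0.05. DESeq2 called 17.1% and limma-trend on log2(FPKM + 1) 7.99% of all genes they tested. The grouping by CTTT was chosen after sequences and values were seen, so it carries no test. An annotated CTTT start was found in only 29 of 82 ribosomal protein genes, so the other 17 hosts can include 5′ TOP transcripts. Without control replicate 1 the log2 fold changes of GAS5 and ZFAS1 were -0.34 and -0.30, and neither passed. Without control replicate 3 they shrank to -0.17 and -0.11 (edgeR adjusted p = 0.465 and 0.715).

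**Figure D4:**
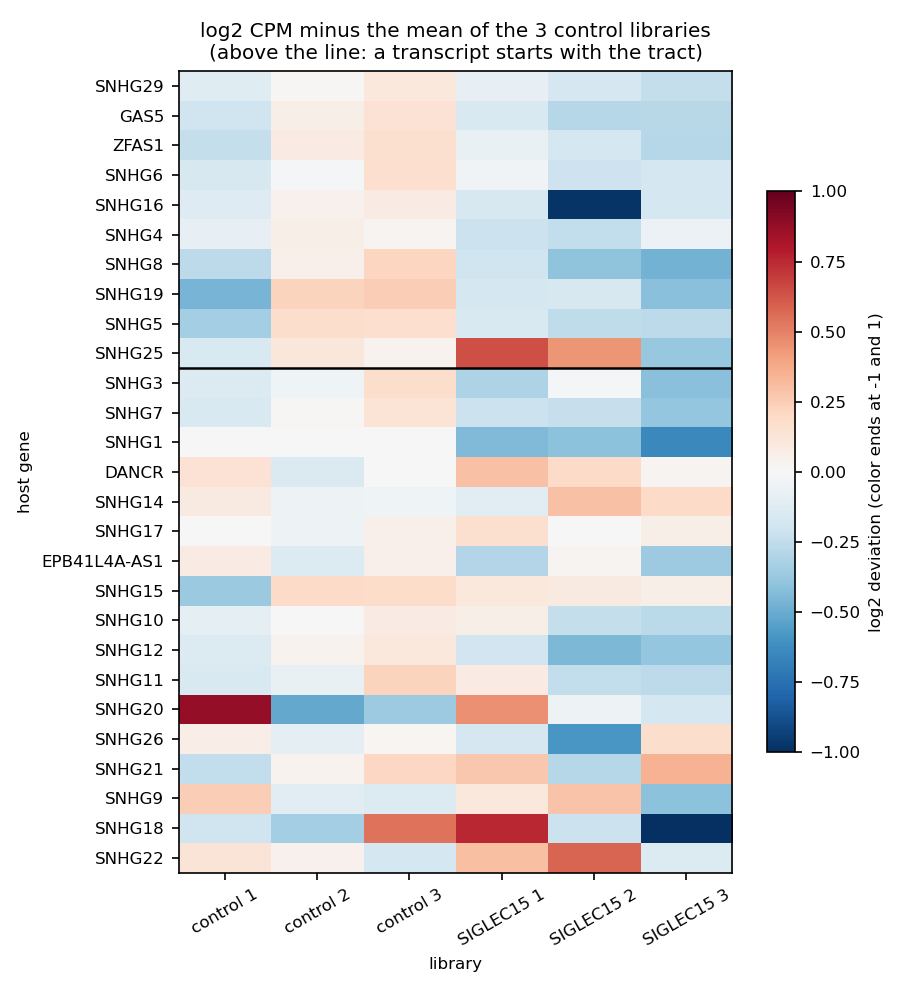
Log2 CPM minus the mean of the 3 control libraries for the 27 tested host genes (rows) in each library (columns), red above and blue below that mean, with colors ending at -1 and 1; genes above the line have an annotated transcript that starts with CTTT. In the control replicate 1 column all 10 genes above the line are blue, and SNHG1 is near white in the 3 controls and blue in the 3 SIGLEC15 siRNA libraries.

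The snoRNAs themselves lack a poly(A) tail, so their rows are a poor measure of them in these libraries. Rows named SNORA, SNORD or SCARNA lay inside 26 of the hosts on the same strand, and none inside GAS5, SNHG27 or SNHG28. There were 132 such rows, 83 of them in SNHG14. No count was listed for 65, all in SNHG14, and 10 rows had exactly 1 count in each of the 6 libraries. Of 19 tested rows 0 passed with edgeR and 3 (15.8%) had an unadjusted p under 0.05, against 4.65% and 19.1% of all tested genes. DESeq2 called 1 of 12 rows with an adjusted p and limma-trend on FPKM 3 of 18. These tools called 17.1% and 7.99% of all genes they tested. SNORD116-4, in SNHG14, had 1, 2 and 6 counts in the control and 19, 17 and 19 in the SIGLEC15 siRNA libraries (log2 fold change 2.49, SE 0.734, edgeR adjusted p = 0.124).

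Genes that overlap a host or start within 1000 bp of it on the opposite strand numbered 35 among those tested. They include RF00099 in SNHG1 and RF00345 in SNHG19, short rows inside a host on its strand that the snoRNA naming above left out. None of the 35 passed with edgeR and 2 (5.71%) had an unadjusted p under 0.05, against 4.65% and 19.1% of all tested genes. DESeq2 called 1 of 34 and limma-trend on log2(FPKM + 1) 0 of 21, against 17.1% and 7.99% of all genes they tested. RPS2, a ribosomal protein whose gene starts 133 bp from SNHG9, had 1865, 1862 and 1984 CPM in the control and 1866, 1502 and 1489 CPM in the SIGLEC15 siRNA libraries (log2 fold change -0.23, edgeR adjusted p = 0.259). SNHG9 itself had 1.59 to 2.07 CPM against 1.31 to 2.12 CPM.

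Of the proteins that bind or process snoRNAs, 1 changed. SNU13, which binds the kink-turn of box C/D snoRNAs and is also a spliceosomal protein, had 117, 125 and 129 CPM in the control and 70, 70.2 and 84.3 CPM in the SIGLEC15 siRNA libraries. It fell by 0.72 on the log2 scale (SE 0.0926, edgeR adjusted p = 0.011), with groups that did not overlap, and lost its call in 3 of 13 alternatives. The other tested box C/D core proteins, fibrillarin (FBL), NOP56 and NOP58, did not pass, and the median of the 4 was -0.05. The 4 core proteins of H/ACA particles had a median log2 fold change of 0.02, the 13 tested assembly factors 0.03 and the 10 tested trimming and debranching factors -0.07. In these 3 lists edgeR, DESeq2 and limma-trend called 0, and 0 had an unadjusted edgeR p under 0.05.

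Of 19 factors of nonsense-mediated decay 1 fell, 18 missed the threshold, and the median log2 fold change over the list was -0.08. At an unadjusted edgeR p under 0.05 there were 4 (21.1%), all lower, against 19.1% of all tested genes. DESeq2 called 2 and limma-trend on log2(FPKM + 1) 1. UPF1, the helicase at the centre of the pathway, had 104, 105 and 109 CPM in the control and 81.3, 80.6 and 77.8 CPM in the SIGLEC15 siRNA libraries. The groups did not overlap, the log2 fold change was -0.41 (SE 0.0586, edgeR adjusted p = 0.0149), and the call was lost in 6 of 13 alternatives.

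Of 59 tested rows of protein-coding snoRNA hosts 1 fell, RABGGTB, which encodes a subunit of the RAB geranylgeranyl transferase, and the median log2 fold change was -0.02. RABGGTB had 150, 170 and 173 CPM against 135, 125 and 121 CPM (log2 fold change -0.37, SE 0.079, edgeR adjusted p = 0.0499) and lost its call in 8 of 13 alternatives. Of the 59 rows 11 (18.6%) had an unadjusted edgeR p under 0.05, DESeq2 called 8 and limma-trend on log2(FPKM + 1) 1. Of the 82 ribosomal protein genes, 0 passed with edgeR, 4 had an unadjusted p under 0.05, DESeq2 called 3 and limma-trend 0, and the median was -0.01.

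GAS5 can bind the glucocorticoid receptor, so 12 glucocorticoid-responsive genes were listed with it, of which 10 were tested. DUSP1, a phosphatase of MAP kinases, had 48.1, 50.5 and 48.3 CPM in the control and 15.5, 17.5 and 16.7 CPM in the SIGLEC15 siRNA libraries. DUSP1 fell (log2 fold change -1.56, SE 0.0865, edgeR adjusted p = 0.00116) and BIRC3 rose (log2 fold change 1.00, SE 0.199, edgeR adjusted p = 0.042), and 8 did not pass, with a median of -0.05. Of the 10, 4 (40%) had an unadjusted edgeR p under 0.05. In 4 the groups did not overlap, against 26.6% of all tested genes. DESeq2 called 4 of 10 and limma-trend on log2(FPKM + 1) 2 of 9. The lists were chosen with earlier results of these data known, so these shares carry no test. BIRC3, which also responds to NF-kB, had 13, 7.82 and 11.2 CPM in the control and 19.7, 23.9 and 20.3 CPM in the SIGLEC15 siRNA libraries, and lost its call in 8 of 13 alternatives. All these list counts are to be read against the shares over all genes tested. Those were 4.65% for edgeR calls, 19.1% for an unadjusted edgeR p under 0.05, 17.1% for DESeq2 and 7.99% for limma-trend on log2(FPKM + 1).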

How the data were processed

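The authors deposited 1 gene table that holds, per the file headers, a column of raw counts and a column of FPKM for every library. Per the submitters' processing notes HISAT, StringTie and edgeR were used, with no versions; build, strand setting and counting step: not given in the sources used here. Table coordinates are printed as listed; 20 of 29 hosts have the same start and end in GENCODE 29 (GRCh38).

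Counts were tested with edgeR 4.0.16 (R 4.3.3): genes were kept by filterByExpr at a count of 10 and a total of 15, libraries were scaled by TMM, and a quasi-likelihood test over all 6 libraries was adjusted over all genes; an adjusted p under 0.05 was called changed. CPM use TMM-scaled library sizes. Intervals cover 95%. The script was first tested on simulated data.

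The named hosts are the 4 that are not SNHG genes, the 10 of highest mean CPM, those called and those whose groups did not overlap, and of other lists up to 4 called genes. Members and lists were chosen with earlier results of these data known. RefSeq promoters matched 25 of 29 hosts by symbol. Alternatives were DESeq2 1.42.0, limma-trend (limma 3.58.1) on log2(FPKM + 1) and log2(FPKM + 0.1), other filters and scaling, a replicate block and each library left out.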

Additional observations from a re-analysis of the deposited data

How the results depend on the processing

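All 13 alternatives were planned. The count of changed hosts (1) became 0 with the replicate block and 0 to 1 with each library left out, and 3 with DESeq2 (SNHG7, SNHG1 and SNHG8, of 26 with an adjusted p), a tool that called 17.1% of all genes. The count of changed genes (879) became 50 with the replicate block, 260 to 431 with each library left out, where 1 library fewer entered the fit, and 2916 of 17043 with DESeq2, for which the cause was not tested. The log2 fold change of SNHG1 was -0.50 and missed the threshold with the replicate block, and lay between -0.54 and -0.42 with a library left out, passing in 1 of 6. Deviations from the group means correlated at r = -0.07, 0.01 and -0.12 between libraries of equal replicate number. Not every library correlated best with its own number. Over all genes these values thus gave no sign that the numbers pair the samples. They cannot settle this for a subset of genes. Of the snoRNA rows 3 in SNHG1 matched by number, while others did not. SNORD12, in ZFAS1, had 20 counts in control replicate 2 and 1 in every other library. None of the 12 named hosts changed direction under any of the 13, and SNHG7 passed with DESeq2 (adjusted p = 0.0288). Between 17 and 20 of the tested hosts lay below 0, and their median log2 fold change was between -0.21 and -0.11. No 2 libraries agreed within counting noise (chi-square per degree of freedom from 55.2 to 109.9). With 3 libraries per group, hosts that did not pass are not shown to be unchanged, and for those under 10 CPM the intervals are wide.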

Other observations

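SNHG20, host of SCARNA16, had 7.78 CPM in control replicate 1 and 2.96 to 5.8 CPM in the other 5 libraries, a spread within the control group wider than its difference between the groups. The SNHG28 counts came from control replicate 3 alone. Host genes other than the named ones that also had control replicate 1 as their lowest control included SNHG15, with 26 CPM there and 35 to 38.3 CPM in the other 5 libraries, and SNHG19, with 19.2 CPM against 30.9 and 31.5 CPM in the other controls.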
